A study of Mus musculus with 18 samples.

Results

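In mouse brown preadipocytes, FGF6 raised the transcripts of the cytokines Lif and Il11 and of the feedback inhibitor Socs3 at every time measured, while the transcripts of the receptors Il6st, Lifr and Il11ra1 fell at every time. These are among 10 genes of the IL-6 cytokine family and its gp130 signaling pathway that are described here. The 10 comprise the ligand genes Il6, Lif, Il11 and Clcf1, the receptor genes Il6st, Lifr, Osmr and Il11ra1, the transcription factor gene Stat3 and the feedback gene Socs3. They were chosen by symbol, through the match of Ensembl identifiers to the GENCODE mouse annotation of GRCm38, from the 48023 genes of the count table. Of the 10, 9 had enough counts to be tested, among 15071 genes tested in all. The cells were an immortalized line made with the SV40 T antigen from precursors in brown fat. They received vehicle or FGF6, a paracrine fibroblast growth factor, and RNA was sequenced after 4, 8, and 24 h from 3 libraries in each of the 6 groups. All groups, controls included, carry the T antigen and come from the same line. Nothing in the labels says that the 3 libraries of a group came from separate cultures, so p-values measure only the spread between these libraries, which may be technical.

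Cytokines of the IL-6 family signal through receptor complexes that contain gp130, the shared subunit encoded by Il6st. Binding of a ligand activates JAK kinases held by the receptor, which phosphorylate STAT3 and also feed the RAS and MAP kinase pathway. Phosphorylated STAT3 enters the nucleus and turns on genes that include Socs3, whose protein binds gp130 and JAK and shuts the signal off. In adipose precursors, LIF and other ligands of the family are known to act on differentiation. RNA counts do not show whether STAT3 was phosphorylated.

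The promoters of 4 genes are shown because their transcripts carry the main contrast among the 10 genes, between Lif, Il11 and Socs3, which rose, and Il6, which did not. Each window runs from 250 bases before to 50 bases after an annotated start in RefSeq (GRCm38.p6), 5′ to 3′ on the strand of the gene. Capitals mark matches, on either strand, to AP-1 (TGANTCA), STAT (TTCNNNGAA) or NF-kB (GGANTTTCC) letters, and CRE letters (TGACGTCA) were also searched. The Il6 window lies at chr5:30012864-30013163 on the plus strand, the Lif window at chr11:4257318-4257617 on the plus strand, the Il11 window at chr7:4778092-4778391 on the minus strand, and the Socs3 window at chr11:117969317-117969616 on the minus strand.
Il6: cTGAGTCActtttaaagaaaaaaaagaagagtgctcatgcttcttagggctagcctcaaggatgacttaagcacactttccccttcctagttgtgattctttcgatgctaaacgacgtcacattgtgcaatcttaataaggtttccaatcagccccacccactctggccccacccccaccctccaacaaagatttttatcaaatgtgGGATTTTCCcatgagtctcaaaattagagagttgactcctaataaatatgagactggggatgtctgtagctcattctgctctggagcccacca
Lif: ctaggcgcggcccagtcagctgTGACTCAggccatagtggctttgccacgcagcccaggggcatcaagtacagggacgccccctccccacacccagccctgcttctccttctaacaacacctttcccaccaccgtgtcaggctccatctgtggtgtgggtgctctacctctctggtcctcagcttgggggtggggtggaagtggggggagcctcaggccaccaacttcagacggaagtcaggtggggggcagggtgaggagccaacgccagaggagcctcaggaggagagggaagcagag
Il11: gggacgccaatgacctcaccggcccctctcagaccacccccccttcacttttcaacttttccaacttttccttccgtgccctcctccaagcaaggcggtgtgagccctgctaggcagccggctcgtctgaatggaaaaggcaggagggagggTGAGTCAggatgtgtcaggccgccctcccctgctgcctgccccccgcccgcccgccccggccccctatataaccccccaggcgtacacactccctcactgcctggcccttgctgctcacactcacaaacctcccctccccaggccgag
Socs3: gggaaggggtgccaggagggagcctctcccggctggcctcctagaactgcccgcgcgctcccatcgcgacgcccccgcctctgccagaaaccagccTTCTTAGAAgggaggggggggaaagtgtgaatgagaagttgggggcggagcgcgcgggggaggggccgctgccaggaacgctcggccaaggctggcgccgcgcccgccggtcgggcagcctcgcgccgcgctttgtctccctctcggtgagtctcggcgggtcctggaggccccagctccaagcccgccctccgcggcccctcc
The windows of Il6, Lif and Il11 each held 1 match to the AP-1 letters, which begin 249, 228 and 98 bases before the start, respectively. Il6 also held the NF-kB letters 43 bases before the start. The Socs3 window held the STAT letters 154 bases before the start, and none of the AP-1 letters. Among all 32851 windows of the same length, 7.81% held the AP-1 letters, 8.3% the STAT letters, 1.25% the NF-kB letters and 1.79% the CRE letters. RefSeq windows were found for 9 of the 10 genes, 12 windows in all, since Il11, Lifr and Il11ra1 have 2 each. The other Il11 window held no match, and counts per gene do not say which start was used. Of the remaining windows, only that of Osmr held a match, to the AP-1 letters. A match is a description of the letters and not evidence that a factor binds there.

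Library totals ranged from 24327816 to 33471980 counts. Levels are given as CPM, counts scaled to the TMM-adjusted library total, as mean ± SD of 3 libraries, and levels of different genes are compared only as RPKM, CPM per kilobase of annotated exon. A gene was called changed at an adjusted p under 0.05 in edgeR's quasi-likelihood test. Adjusted p-values are from that test with Benjamini-Hochberg adjustment over the 15071 genes, except those given for alternatives. The alternatives, listed under the processing, include other tests, filters and sets of libraries. An SE follows most log2 fold changes. An exact permutation test of 3 against 3 libraries cannot go below 0.1. Transcripts of stromal precursors were present, with Pdgfra between 88.8 and 302.7 CPM and Pdgfrb between 131.1 and 703.6 CPM, but Dlk1 had no count in any library. Of the 6 genes listed for macrophages and leukocytes, Ptprc and Adgre1 had at most 2 counts and Itgam at most 3 in any library. The others were present, with up to 523 counts of Cd68, 128 of Csf1r and 40 of Lyz2. The 6 genes of that list summed to 3.39 to 19.2 CPM, mostly Cd68. The summed level was 63.4 to 178.2 CPM for the 6 genes of mature adipocytes (nearly all Fabp4, with no count of Lep). It was 0.377 to 5.65 CPM for the 4 genes of endothelium and 1.60 to 8.96 CPM for the 5 genes of myoblasts. Of the myoblast genes, Myod1 lay between 0.893 and 3.60 CPM and Myog between 0.286 and 4.80 CPM over all libraries. Des had up to 33 counts, Pax7 at most 1 and Myf5 none.

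Many genes responded to FGF6, so counts of the 9 genes tested stand beside those of all genes. At 4 h, 7 of the 9 were called, 3 higher and 4 lower, beside 62.8% of all genes tested. At 8 h all 9 were called, 3 higher and 6 lower, beside 70.8% of all genes. At 24 h, 8 were called, 3 higher and 5 lower, beside 73.8% of all genes. By direction, 28.6%, 32.4% and 35.9% of all genes were called higher at 4, 8 and 24 h, and 34.2%, 38.4% and 37.9% lower. The median log2 fold change of the 9 was -0.21, -0.56 and -0.33 at 4, 8 and 24 h, against -0.05, -0.05 and -0.02 for all genes. Changes of at least 2-fold were less common. At 4 h, Lif, Il11 and Socs3 were at least 2-fold higher, as were 4.96% of all genes, and none of the 9 was at least 2-fold lower, as were 6.38% of all genes. At 8 h, Lif and Il11 were at least 2-fold higher (7.39% of all genes) and Lifr and Il11ra1 at least 2-fold lower (10.9%). At 24 h, Lif and Il11 were at least 2-fold higher (7.44%) and Il6st, Lifr and Il11ra1 at least 2-fold lower (15.3%). Since the genes were picked with results of these data known, these shares are descriptions.

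**Figure D1:**
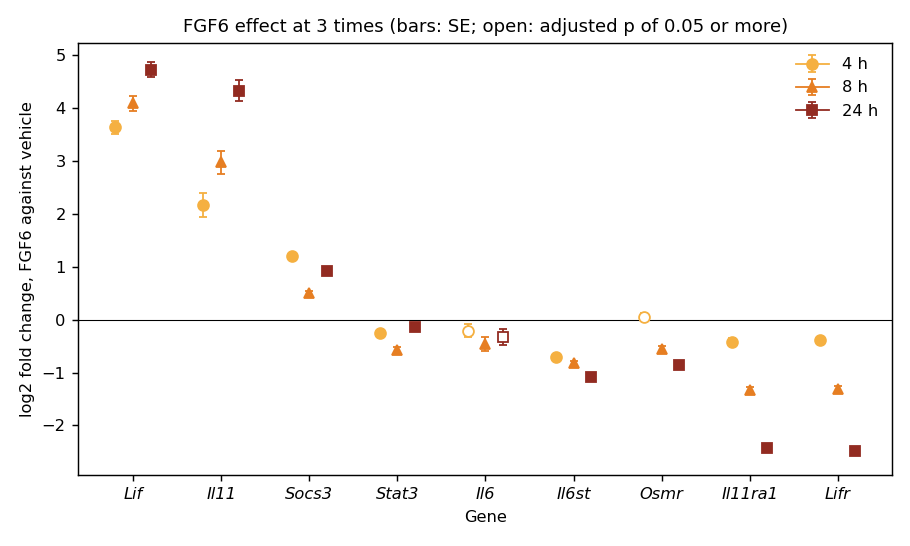
Log2 fold change of FGF6 against vehicle (y axis) for the 9 genes tested (x axis) at 4 h (circles), 8 h (triangles) and 24 h (squares), with the SE as bars and open symbols where the adjusted p was 0.05 or more. Lif and Il11 lie highest, at 4.73 and 4.33 at 24 h, and Lifr and Il11ra1 lowest, at -2.49 and -2.43.

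Lif (ENSMUSG00000034394, chr11:4257557-4272514, plus strand) encodes leukemia inhibitory factor, a ligand of the complex of LIFR with gp130. In vehicle-treated cells Lif was low, at 3.15, 2.60 and 2.64 CPM at 4 h, 1.51, 1.78 and 1.95 CPM at 8 h, and 1.72, 1.30 and 2.23 CPM at 24 h. With FGF6 it stood at 37.2, 31.3 and 35.8 CPM at 4 h, 31.6, 30.4 and 26.9 CPM at 8 h, and 52.7, 41.3 and 41.4 CPM at 24 h. Every FGF6 library lay above every vehicle library. The FGF6 level was 12.4-fold higher than vehicle at 4 h (log2 fold change 3.63, SE 0.125, adjusted p = 2.2e-18). The fold was 17.0 at 8 h (4.09, SE 0.138, adjusted p = 8.56e-19) and 26.5 at 24 h (4.73, SE 0.136, adjusted p = 1.88e-20). In order of level, FGF6 at 24 h came first without overlap, FGF6 at 4 and 8 h followed and overlapped, and vehicle at 8 and 24 h came last and overlapped. From 4 to 8 h the FGF6 level did not rise, at 34.8 ± 3.1 and then 29.6 ± 2.5 CPM. The larger fold at 8 h came with a lower vehicle level, which fell from 2.79 ± 0.31 CPM at 4 h to 1.75 ± 0.22 CPM at 8 h (log2 fold change -0.68, SE 0.203, adjusted p = 0.00857). That fall was not called by limma-voom (adjusted p = 0.0693, with a range from 4.68e-05 to 0.0693 over the 26 alternatives).

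Il11 (ENSMUSG00000004371, chr7:4772373-4782859, minus strand) encodes interleukin 11, a ligand that uses IL11RA and gp130. Vehicle libraries held only 14 to 24 Il11 counts each, at 0.778, 0.556 and 0.801 CPM at 4 h, 0.537, 0.667 and 0.753 CPM at 8 h, and 0.490, 0.543 and 0.841 CPM at 24 h. These 3 vehicle groups overlapped. With FGF6, Il11 stood at 3.37, 3.73 and 2.44 CPM at 4 h, 5.66, 5.41 and 4.23 CPM at 8 h, and 14.4, 10.9 and 11.7 CPM at 24 h. The 3 FGF6 groups did not overlap with each other or with vehicle, and their order followed time. Il11 was 4.50-fold higher at 4 h (log2 fold change 2.17, SE 0.226, adjusted p = 6.16e-09), 7.85-fold higher at 8 h (2.97, SE 0.214, adjusted p = 4.08e-12) and 20.1-fold higher at 24 h (4.33, SE 0.201, adjusted p = 4.08e-16).

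Il6 (ENSMUSG00000025746, chr5:30013114-30019981, plus strand), the founding cytokine of the family, did not share this course. Vehicle libraries held 15.3, 16.2 and 17.0 CPM at 4 h, 12.8, 13.9 and 14.0 CPM at 8 h, and 8.90, 7.24 and 7.86 CPM at 24 h. FGF6 libraries held 15.4, 14.0 and 12.4 CPM at 4 h, 12.2, 8.03 and 9.45 CPM at 8 h, and 8.17, 6.14 and 4.74 CPM at 24 h. The groups overlapped at 4 and 24 h, and at 8 h every FGF6 library lay below every vehicle library. At 8 h Il6 fell with FGF6 (log2 fold change -0.45, SE 0.131, adjusted p = 0.0036). At 4 h the log2 fold change was -0.21 (SE 0.124, adjusted p = 0.142) and at 24 h it was -0.33 (SE 0.153, adjusted p = 0.0562), and neither was called. Over the 26 alternatives the adjusted p ranged from 0.0301 to 0.501 at 4 h and from 0.00369 to 0.499 at 24 h. The call at 24 h was made, among others, without FGF6 replicate 1 at 24 h (-0.51) and without FGF6 replicate 1 or 2 at 8 h (-0.33 each). The level also moved with time in culture, and vehicle fell from 13.6 ± 0.64 CPM at 8 h to 8.00 ± 0.84 CPM at 24 h (log2 fold change -0.77, SE 0.136, adjusted p = 4.32e-05).

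Clcf1 (ENSMUSG00000040663, chr19:4214238-4223490, plus strand), which encodes cardiotrophin-like cytokine factor 1, had at most 1 count in any library and could not be tested. A count of 0 allows up to 3 counts in a library. Part of its annotated exon, 311 of 3806 bases, overlaps another gene on the same strand, which is not among the genes of the count table.

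**Figure D2:**
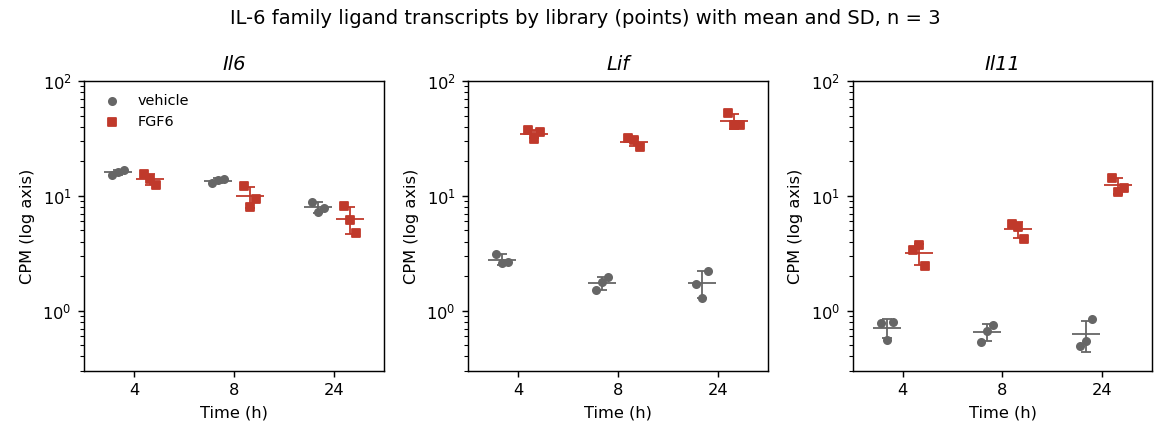
CPM on a log axis (y) of Il6, Lif and Il11 at 4, 8 and 24 h (x) in vehicle (grey circles) and FGF6 (red squares) libraries, with the mean and SD of 3 libraries as a line and bars. Lif and Il11 libraries with FGF6 all lie above those with vehicle, whereas Il6 is lower at later times under both treatments and its groups overlap at 4 and 24 h.

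Per length of exon, Il6 was the highest ligand transcript in vehicle at each time, and Lif was the highest with FGF6 at each time. In vehicle at 4 h, Il6 stood at 6.66 ± 0.33 RPKM, Lif at 0.642 ± 0.070 RPKM and Il11 at 0.342 ± 0.065 RPKM. In vehicle at 24 h, Il6 had fallen to 3.295 ± 0.3453 RPKM, still above Lif at 0.4017 ± 0.1073 RPKM and Il11 at 0.3002 ± 0.09084 RPKM. Il6 was thus lower at 24 h than at 4 h with vehicle alone, and the cause was not tested. With FGF6, Il11 was below Il6 at 4 h (1.527 against 5.738 RPKM) and at 8 h (2.452 against 4.072 RPKM). With FGF6 at 24 h, Lif was first at 10.4 ± 1.51 RPKM, Il11 second at 5.92 ± 0.89 RPKM and Il6 last at 2.62 ± 0.71 RPKM. Each of these gaps at 24 h with FGF6 was larger than the SDs.

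Among the receptor genes, 3 of 4 were called lower at 4 h and all 4 at 8 and 24 h, beside 34.2%, 38.4% and 37.9% of all genes called lower. Il6st (ENSMUSG00000021756, chr13:112464070-112510086, plus strand), which encodes gp130 itself, stood at 63.5 ± 0.77 RPKM in vehicle at 4 h, the highest level per length of the 10 genes in that group, and at 39.1 ± 2.07 RPKM with FGF6 at 4 h, below Socs3 at 50.3 ± 2.77 RPKM. Its vehicle libraries held 697.6, 714.1 and 702.2 CPM at 4 h, 842.6, 874.7 and 883.7 CPM at 8 h, and 710.9, 775.4 and 792.9 CPM at 24 h. FGF6 libraries held 410.4, 436.5 and 456.3 CPM at 4 h, 487.5, 487.3 and 495.6 CPM at 8 h, and 375.7, 353.3 and 347.0 CPM at 24 h. No FGF6 library reached the lowest vehicle library. The log2 fold change was -0.70 at 4 h (SE 0.040, adjusted p = 5.96e-14), -0.82 at 8 h (SE 0.040, adjusted p = 1.14e-15) and -1.08 at 24 h (SE 0.040, adjusted p = 3.12e-18). At 24 h, 358.6 ± 15.1 CPM of Il6st were left with FGF6 against 759.7 ± 43.2 CPM with vehicle.

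Lifr (ENSMUSG00000054263, chr15:7090614-7197489, plus strand) encodes the receptor chain that pairs with gp130 for LIF. Vehicle libraries held 154.2, 170.6 and 170.0 CPM at 4 h, 142.7, 166.8 and 164.5 CPM at 8 h, and 132.5, 140.9 and 142.7 CPM at 24 h. With FGF6, Lifr stood at 116.6, 138.7 and 123 CPM at 4 h, 66.1, 62.8 and 61.6 CPM at 8 h, and 27.1, 23.7 and 23.3 CPM at 24 h. The groups were separate at each time, although FGF6 at 4 h overlapped vehicle at 24 h. The log2 fold change of Lifr went from -0.39 at 4 h (SE 0.060, adjusted p = 4.06e-06) to -1.31 at 8 h (SE 0.063, adjusted p = 1.02e-15) and -2.49 at 24 h (SE 0.070, adjusted p = 1.11e-20). The last is 5.62-fold lower.

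Il11ra1 (ENSMUSG00000073889, chr4:41699989-41769474, plus strand) encodes the ligand-binding receptor of IL-11. Its transcript rose with time in vehicle, from 25.4, 23.5 and 25.1 CPM at 4 h to 29.6, 30.1 and 29.0 CPM at 8 h and 34.5, 37.9 and 35.1 CPM at 24 h. With FGF6 it went the other way, from 18.9, 19.3 and 17.1 CPM at 4 h to 10.7, 12.5 and 12.1 CPM at 8 h and 6.93, 6.22 and 6.86 CPM at 24 h. None of the 6 groups overlapped another in the order of levels. The FGF6 effect was -0.42 at 4 h (SE 0.063, adjusted p = 2.6e-06), -1.33 at 8 h (SE 0.066, adjusted p = 1.98e-15) and -2.43 at 24 h (SE 0.072, adjusted p = 3.18e-20) on the log2 scale. Il11ra1 has a near-identical copy, Il11ra2, which had no count in any library. How reads that map to both were treated is not given in the sources used here, so the level of Il11ra1 is uncertain.

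Osmr (ENSMUSG00000022146, chr15:6813577-6874969, minus strand) encodes the chain that pairs with gp130 for oncostatin M. It differed from the other receptors at 4 h, when vehicle libraries held 230.5, 249.7 and 249.9 CPM and FGF6 libraries 245.6, 258.8 and 252.6 CPM, with overlap. The log2 fold change at 4 h was 0.05 (SE 0.068, adjusted p = 0.528), and -0.05 with library sizes alone as the scale. Osmr was lower with FGF6 at 8 h, at 204.2, 185.7 and 182.4 CPM against 273.1, 285.1 and 284.4 CPM (log2 fold change -0.56, SE 0.068, adjusted p = 7.17e-08). At 24 h it stood at 85.4, 62.6 and 64.8 CPM with FGF6 against 134.1, 126.9 and 122.6 CPM with vehicle (-0.85, SE 0.072, adjusted p = 8.01e-11). Vehicle itself fell by 1.13 on the log2 scale from 8 to 24 h (SE 0.069, adjusted p = 1.31e-12).

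**Figure D3:**
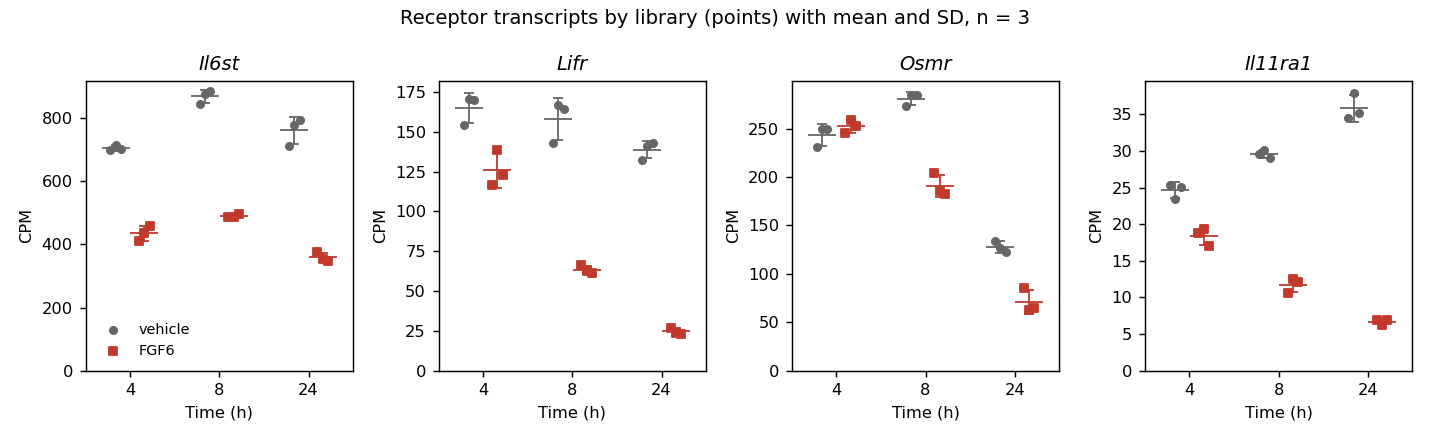
CPM (y, from 0) of Il6st, Lifr, Osmr and Il11ra1 at 4, 8 and 24 h (x) in vehicle (grey circles) and FGF6 (red squares) libraries, with the mean and SD of 3 libraries as a line and bars. FGF6 libraries lie below vehicle libraries in every panel and time except Osmr at 4 h.

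Most stromal precursor markers were also lower with FGF6. Of the 10 genes of the list, 9 were tested and Dlk1 was at 0. Of the 9, 7 were called lower at 4 h, 8 at 8 h and 8 at 24 h, beside 34.2%, 38.4% and 37.9% of all genes. Their summed level was 3356 to 3599, 4690 to 4972 and 4400 to 4724 CPM in vehicle at 4, 8 and 24 h. With FGF6 it was 2109 to 2236, 2352 to 2557 and 833.9 to 893.4 CPM. The sum is mostly Col1a1, which at 24 h was 3107 ± 151.3 CPM in vehicle libraries against 443.3 ± 33.7 CPM after FGF6. Cd34 went the other way, from 16.5 ± 0.92 CPM to 43.0 ± 3.37 CPM at 24 h, and was the 1 gene of the list called higher, while Thy1 was only slightly lower, at 55.7 ± 0.67 against 63.6 ± 0.52 CPM. The part of these markers in the fall of the receptor transcripts was not tested. In bulk RNA, fewer cells of a type and less RNA per cell cannot be told apart.

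Socs3 (ENSMUSG00000053113, chr11:117966079-117970047, minus strand) encodes the inhibitor that ends signaling at gp130. It stood at 65.6, 62.5 and 62.0 CPM in vehicle at 4 h and at 147.2, 152.3 and 136.6 CPM with FGF6. At 8 h the levels were 59.9, 58.3 and 59.7 CPM with vehicle and 89.2, 80.2 and 80.9 CPM with FGF6. At 24 h they were 40.5, 35.4 and 34.9 CPM with vehicle and 74.9, 67.3 and 68.2 CPM with FGF6. All FGF6 libraries lay above all vehicle libraries. Socs3 was 2.30-fold higher at 4 h (log2 fold change 1.20, SE 0.053, adjusted p = 3.58e-16), 1.41-fold at 8 h (0.49, SE 0.054, adjusted p = 1.02e-08) and 1.90-fold at 24 h (0.92, SE 0.057, adjusted p = 1.36e-13). The FGF6 level went from 145.4 ± 8.0 CPM at 4 h to 83.4 ± 5.0 and 70.1 ± 4.1 CPM, and the larger fold at 24 h than at 8 h came with a lower vehicle level, 36.9 ± 3.1 against 59.3 ± 0.87 CPM.

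Stat3 (ENSMUSG00000004040, chr11:100885098-100939540, minus strand), the transcription factor gene, was lower with FGF6 by smaller amounts. It held 133.0, 133.7 and 140.3 CPM in vehicle at 4 h against 112.8, 113.6 and 115.1 CPM with FGF6 (log2 fold change -0.25, SE 0.048, adjusted p = 5.55e-05). At 8 h it held 176.8, 163.0 and 166.5 CPM against 119.2, 109.2 and 113.2 CPM (-0.57, SE 0.048, adjusted p = 8.02e-11). At 24 h the levels were 140.2, 137.4 and 142.1 CPM with vehicle and 140.3, 122.5 and 117.6 CPM with FGF6. FGF6 replicate 1 at 24 h lay within the vehicle range, so these groups overlapped. The difference at 24 h was called (-0.14, SE 0.048, adjusted p = 0.00995), but the call was lost when any of 9 libraries was left out, with values from -0.115 to -0.049. These were each vehicle library at 24 h, each FGF6 library at 4 h, FGF6 replicate 3 at 8 h and FGF6 replicates 2 and 3 at 24 h. Of the exon bases of Stat3, 72 of 9527 overlap Stat5a on the other strand, and whether the counting used strand is not given in the sources used here.

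**Figure D4:**
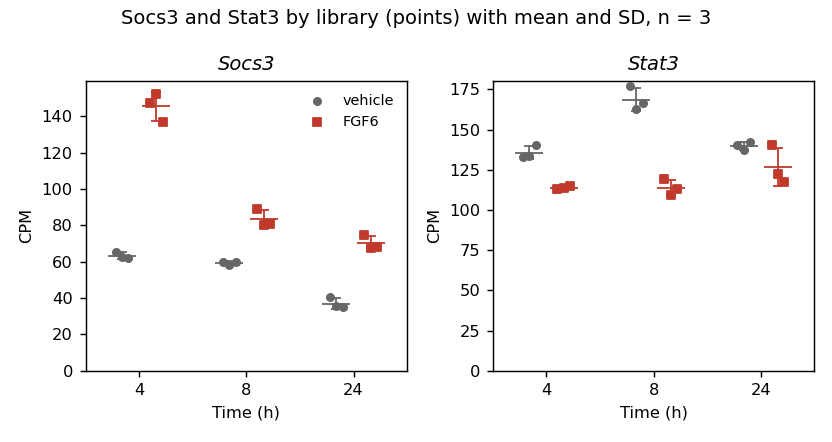
CPM (y, from 0) of Socs3 and Stat3 at 4, 8 and 24 h (x) in vehicle (grey circles) and FGF6 (red squares) libraries, with the mean and SD of 3 libraries as a line and bars. Socs3 is highest with FGF6 at 4 h, at 145.4 CPM, and Stat3 highest with vehicle at 8 h, at 168.7 CPM.

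The change of the FGF6 effect over time was tested as an interaction. Between 4 and 8 h it changed for 5 of the 9 genes, all toward lower, beside 30.6% of all genes. These were Lifr, Il11ra1, Socs3, Osmr and Stat3. For the ligands no change was called over this interval, with log2 differences of 0.45 for Lif (SE 0.223, adjusted p = 0.132), 0.80 for Il11 (SE 0.345, adjusted p = 0.0824) and -0.24 for Il6 (SE 0.181, adjusted p = 0.349). For Lif the change was called without the filter on low counts and with only the times compared, and its adjusted p ranged from 0.0378 to 0.308 over the 26 alternatives. For Il11 it was called without FGF6 replicate 2 at 4 h (0.96) or replicate 3 at 8 h (0.93). Between 8 and 24 h it changed for 8 of the 9, 4 toward higher and 4 toward lower, beside 45.1% of all genes. Lif, Il11, Socs3 and Stat3 moved toward higher and all 4 receptors toward lower. The calls for Lif and Osmr over this interval rested on single libraries, and over the 26 alternatives their adjusted p ranged from 0.00381 to 0.186 and from 2.48e-07 to 0.0848. The libraries were vehicle replicates 2 and 3 at 8 h, vehicle replicates 1 and 2 at 24 h, FGF6 replicate 3 at 8 h and FGF6 replicate 1 at 24 h for Lif (0.44 to 0.65 without each), and FGF6 replicate 1 at 8 h and replicates 2 and 3 at 24 h for Osmr (-0.24 to -0.21 without each). From 4 to 24 h it changed for 7 of the 9, with Lif and Il11 toward higher and the receptors and Socs3 toward lower, beside 53.5% of all genes. The 4 to 24 h difference was 2.16 for Il11 (SE 0.350, adjusted p = 1.08e-05) and 1.09 for Lif (SE 0.226, adjusted p = 0.000213) on the log2 scale. For Lifr it was -2.10 (SE 0.092, adjusted p = 7.17e-16) and for Il11ra1 -2.01 (SE 0.097, adjusted p = 4.82e-15).

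Levels in vehicle also moved with time in culture. From 4 to 8 h, 5 of the 9 genes changed, beside 43% of all genes, with Il6st, Osmr, Il11ra1 and Stat3 higher and Lif lower. From 8 to 24 h, 7 of the 9 changed, beside 49.2% of all genes. Only Il11ra1 rose over that interval (0.28 on the log2 scale, SE 0.058, adjusted p = 0.000261), while Il6, Il6st, Lifr, Osmr, Socs3 and Stat3 fell. The change of Osmr from 4 to 8 h (0.21) was not called without vehicle replicate 1 at 4 h (0.17) or 2 at 8 h (0.20) or with DESeq2 (0.20), nor that of Lifr from 8 to 24 h (-0.19) without vehicle replicate 2 (-0.15) or 3 (-0.16) at 8 h or 1 at 24 h (-0.16).

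The pathway around these genes was described with 66 further genes in 6 lists, 58 of which were tested. With FGF6, 25 rose and 21 fell at 4 h, 24 rose and 23 fell at 8 h, and 24 rose and 29 fell at 24 h. The share called was 79.3%, 81% and 91.4%, beside 62.8%, 70.8% and 73.8% of all genes. Their median log2 fold change was 0.04, 0.04 and -0.09, beside -0.05, -0.05 and -0.02 for all genes. Of 8 other ligand genes, 3 were tested. Osm, the gene of oncostatin M, had no count in any library. Ctf1, the gene of cardiotrophin 1, fell at each time, most at 4 h, from 4.44, 4.42 and 3.50 CPM to 1.44, 2.17 and 1.99 CPM (log2 fold change -1.14, SE 0.171, adjusted p = 2.42e-06).

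Of 7 other receptor and shedding genes, 4 were tested, and at 24 h 1 rose and 3 fell, beside 73.8% of all genes called. None was called at least 2-fold higher or lower at any time. Il6ra, the ligand-binding receptor of IL-6, was lower at 24 h, at 21.8, 23.0 and 22.3 CPM with FGF6 against 33.4, 35.3 and 32.9 CPM with vehicle (log2 fold change -0.60, SE 0.059, adjusted p = 1.43e-09). It was named after its values were seen.

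All 10 genes of the JAK, STAT and RAS relay were tested, and at 24 h 9 fell and Grb2 rose, beside 37.9% and 35.9% of all genes. Stat5a, which relays growth hormone and prolactin among other signals, went from 90.7, 92.2 and 87.8 CPM to 16.8, 16.7 and 19.1 CPM at 24 h (log2 fold change -2.37, SE 0.049, adjusted p = 2.44e-23). Gab1, an adaptor between receptors and the RAS pathway, was lower at each time, with log2 fold changes of -0.99, -1.09 and -1.28.

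Of 12 other inhibitors of the pathway, all tested, 6 rose and 3 fell at 4 h, 7 rose and 3 fell at 8 h, and 6 rose and 4 fell at 24 h. The share called was 75%, 83.3% and 83.3%, beside 62.8%, 70.8% and 73.8% of all genes. Socs5, a relative of Socs3, rose from 135.4, 138.8 and 130.9 CPM to 369.9, 385.6 and 385.8 CPM at 4 h (log2 fold change 1.49, SE 0.034, adjusted p = 7.09e-22) and was still higher at 24 h (0.99, SE 0.035, adjusted p = 1.33e-18). Socs2, which restrains growth hormone signaling, was higher at 4 and 8 h (1.22 and 1.67) and lower at 24 h (-0.26, SE 0.079, adjusted p = 0.00549). Cish, a STAT5 target of the same family, was lower throughout, and at 24 h stood at 1.75, 1.61 and 1.54 CPM with FGF6 against 11.2, 11.1 and 10.9 CPM with vehicle (-2.76, SE 0.106, adjusted p = 7.45e-18). Ptpn6, a phosphatase, lay between 0.309 and 1.90 CPM in all libraries and was called at 24 h only (1.13, SE 0.259, adjusted p = 0.000373).

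The 20 genes listed as STAT3 targets moved in both directions, 11 rising and 7 falling at 4 h, 10 and 8 at 8 h, and 12 and 6 at 24 h. The share called was 90% at each time, beside 62.8%, 70.8% and 73.8% of all genes. Several are also targets of growth factor signaling. Ccnd1, the cyclin that drives entry into the cell cycle, rose from 57.1, 44.3 and 50.5 CPM to 498.5, 534.9 and 552.8 CPM at 24 h (log2 fold change 3.39, SE 0.070, adjusted p = 2.04e-23). Of the exon bases of Ccnd1, 1100 of 4709 overlap another gene on the other strand, and the strand setting is not given. Saa3, the acute-phase gene of serum amyloid A3, overlapped between treatments at 4 h (0.02, SE 0.120, adjusted p = 0.884) and at 24 h stood at 1.97, 2.07 and 4.26 CPM with FGF6 against 239.4, 159.0 and 146.2 CPM with vehicle, 65.7-fold lower (-6.04, SE 0.188, adjusted p = 9.31e-20). Hp, the gene of haptoglobin, another acute-phase protein, was 25.6-fold lower at 24 h, at 0.912, 0.750 and 0.991 CPM against 27.6, 19.8 and 20.7 CPM (-4.68, SE 0.159, adjusted p = 5.59e-19). Both genes also declined with time in vehicle, Saa3 from 985.6 ± 51.9 CPM at 4 h to 181.6 ± 50.5 CPM at 24 h. Icam1, an adhesion molecule, was also lower at 24 h (-3.77, SE 0.343, adjusted p = 2.9e-10), although its FGF6 libraries held only 3, 5 and 6 counts.

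**Figure D5:**
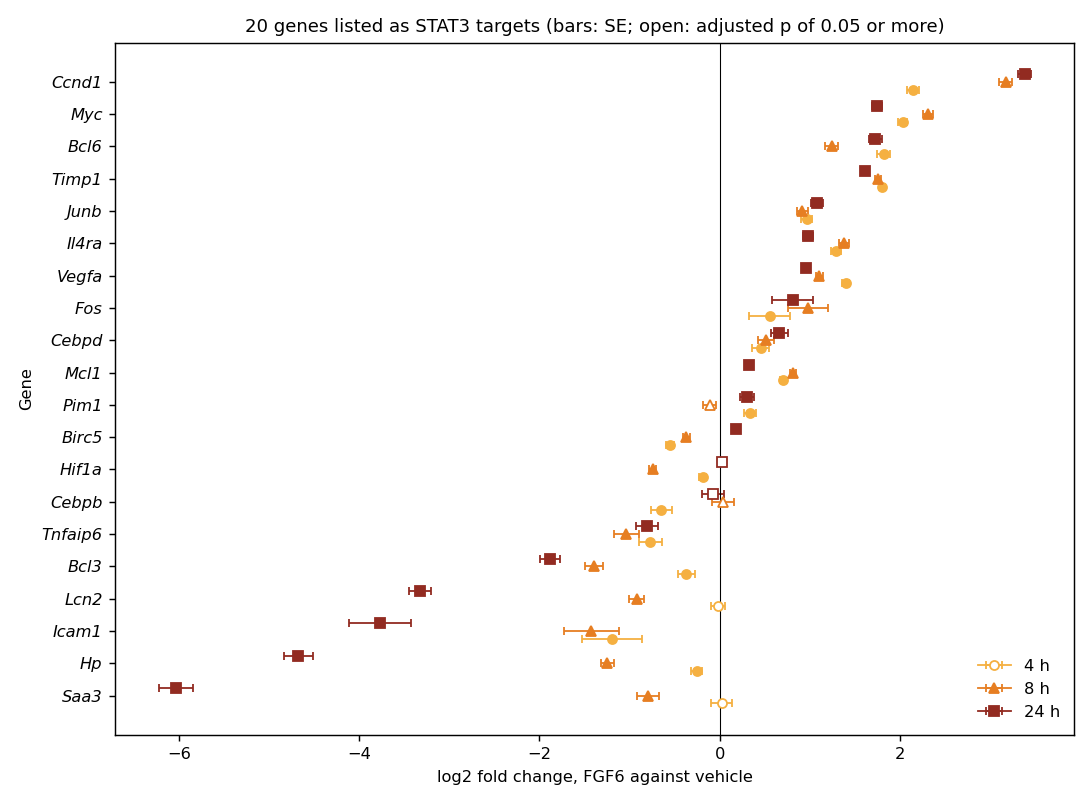
Log2 fold change of FGF6 against vehicle (x axis) for the 20 genes listed as STAT3 targets (y axis, ordered by the value at 24 h) at 4 h (circles), 8 h (triangles) and 24 h (squares), with the SE as bars and open symbols where the adjusted p was 0.05 or more. Ccnd1 lies highest at 24 h, at 3.39, and Saa3 lowest, at -6.04.

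Of 9 genes that control the stability or translation of cytokine mRNA, 5 rose and 2 fell at 4 h, 4 rose and 2 fell at 8 h, and 4 rose and 5 fell at 24 h. The share called was 77.8%, 66.7% and 100%, beside 62.8%, 70.8% and 73.8% of all genes. Zfp36l1, which promotes decay of AU-rich mRNAs, fell from 100.5, 103.3 and 98.9 CPM to 17.2, 16.6 and 17.7 CPM at 24 h (log2 fold change -2.56, SE 0.052, adjusted p = 1.4e-23). Of the exon bases of Zfp36l1, 1672 of 2990 overlap another gene on the other strand. Since the strand setting is not given, its level is uncertain. Its relative Zfp36l2 rose, most at 4 h (1.31, SE 0.049, adjusted p = 1.26e-17). Zc3h12a, the gene of regnase-1, an endonuclease that cuts Il6 mRNA, was higher at 4 h (0.47, SE 0.041, adjusted p = 2.54e-10) and lower at 24 h (-1.53, SE 0.045, adjusted p = 2.99e-20). Auh, an AU-binding enzyme, was lower at each time, most at 8 h (-1.37, SE 0.088, adjusted p = 4.24e-13).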

How the data were processed

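RNA was sequenced from 18 libraries of mouse brown preadipocytes. The authors used STAR to align reads to GRCm38 and featureCounts of Subread to assign them to genes, and deposited raw counts. Tool versions, the annotation release, the strand setting and the treatment of reads with several matches are not given in the sources used here. From the counts, genes were kept by filterByExpr (15071 of 48023), TMM factors were computed, and a quasi-likelihood model of the 6 groups was fitted with edgeR 4.0.16 (R 4.3.3). The contrasts were FGF6 minus vehicle at each time, interactions between times and comparisons between vehicle groups. Symbols, positions and exon lengths came from GENCODE M21 (98.3% of identifiers matched). Each SE is implied by the F statistic. Totals of 24327816 to 33471980 counts set the precision, and floors of 3 counts cover counting error only. The method was tested on simulated data.

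The alternatives were library sizes alone, DESeq2 1.42.0, limma-voom 3.58.1, no filter, a minimum of 10 counts per library, only the times compared, the replicate number as a block, an adjusted p under 0.25, and leaving out each library. A 2-fold threshold was added after seeing the data. All 10 genes are named. From each further list, up to 4 genes are named, those called with no overlap and at least 2-fold at any time, by size. Results for some genes of these lists are not reported here. The 3 genes most alike were taken among genes with a mean of at least 1 CPM. The members and lists were chosen with earlier results of these data known.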

Additional observations from a re-analysis of the deposited data

Results flagged for a closer look

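The FGF6 effect was compared between times by interaction terms of edgeR's quasi-likelihood test, read over all genes for the adjustment. Between 4 and 8 h it differed for 5 of the 9 genes tested, beside 30.6% of all genes. Between 8 and 24 h it differed for 8 of the 9, beside 45.1%, and from 4 to 24 h for 7 of the 9, beside 53.5%. All values are differences of log2 fold changes. Groups of 3 libraries were not searched for single libraries that stand apart.

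Between 4 and 8 h, the effect moved by -0.928 for Lifr (adjusted p = 1.2e-08), -0.916 for Il11ra1 (adjusted p = 3.5e-08), -0.705 for Socs3 (adjusted p = 9.29e-08), -0.610 for Osmr (adjusted p = 2.51e-05) and -0.313 for Stat3 (adjusted p = 0.000847). Between 8 and 24 h, the receptors moved further down, by -1.176 for Lifr (adjusted p = 1.54e-10), -1.093 for Il11ra1 (adjusted p = 1.93e-09), -0.293 for Osmr (adjusted p = 0.0182) and -0.260 for Il6st (adjusted p = 0.000429). Over the same interval Il11 moved by 1.354 (adjusted p = 0.00258), Lif by 0.639 (adjusted p = 0.0383), Socs3 by 0.431 (adjusted p = 6.94e-05) and Stat3 by 0.425 (adjusted p = 1.16e-05). The FGF6 effect on Socs3 and on Stat3 thus moved down and then up, but their levels with FGF6 did not follow that course. Socs3 with FGF6 stood at 145.4, 83.4 and 70.1 CPM at 4, 8 and 24 h. Stat3 stood at 113.8, 113.9 and 126.8 CPM with FGF6 and at 135.7, 168.7 and 139.9 CPM with vehicle.

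From 4 to 24 h, the difference was 2.156 for Il11 (adjusted p = 1.08e-05), 1.093 for Lif (adjusted p = 0.000213), -0.274 for Socs3 (adjusted p = 0.0043), -0.385 for Il6st (adjusted p = 2.14e-06), -0.903 for Osmr (adjusted p = 2.58e-08), -2.009 for Il11ra1 (adjusted p = 4.82e-15) and -2.104 for Lifr (adjusted p = 7.17e-16). These contrasts share groups, so the values for 1 gene are not independent of each other.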

How the results depend on the processing

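When a change of 2-fold or more was also required, a choice made with the data in view, 1710, 2759 and 3431 genes were called at 4, 8 and 24 h, of which 3, 4 and 5 were among the 9 and 13, 18 and 18 among the other pathway genes. An adjusted p under 0.25 called 7397 genes and 8 of the 9 for the change between 4 and 8 h. With library sizes alone, the median log2 fold change of all genes at 4 h moved from -0.048 to -0.150, and calls from 4308 higher and 5152 lower to 3242 and 6495. The split moved from 4263 and 3794 to 5393 and 3127 for the change from 4 to 24 h, and from 3839 and 3575 to 2844 and 4976 for vehicle at 24 against 8 h. Osmr at 4 h reversed to -0.049, and Socs3 lost the call for the change from 4 to 24 h (-0.181). Lif lost the call for the change from 8 to 24 h with limma-voom (0.655) and with at least 10 counts in every library (0.607), and Osmr with library sizes alone (-0.237).

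Against vehicle, Lif, Il11, Il6st, Lifr, Il11ra1 and Socs3 at each time, Il6 and Stat3 at 8 h, Stat3 at 4 h and Osmr at 8 and 24 h kept direction and call under all 26 alternatives. Il6 at 24 h was called without the filter, with at least 10 counts in every library, and without FGF6 replicate 1 at 24 h or replicates 1 or 2 at 8 h, and ranged from -0.507 to -0.117 over the 18 libraries left out in turn. Il6 at 4 h was called with library sizes alone (-0.313) and without the filter (-0.204). Stat3 at 24 h ranged from -0.177 to -0.049 and lost its call without each vehicle library at 24 h, each FGF6 library at 4 h, FGF6 replicate 3 at 8 h, and FGF6 replicates 2 and 3 at 24 h. For the change from 8 to 24 h, Lif (0.441 to 0.826) lost its call without vehicle replicates 2 or 3 at 8 h, 1 or 2 at 24 h, FGF6 replicate 3 at 8 h or 1 at 24 h, and Osmr (-0.447 to -0.209) without FGF6 replicate 1 at 8 h or 2 or 3 at 24 h. In vehicle, calls were lost for Osmr from 4 to 8 h (0.168 to 0.226) without replicate 1 at 4 h or 2 at 8 h and with DESeq2 (0.195), for Lif from 4 to 8 h with limma-voom (-0.676), and for Lifr from 8 to 24 h (-0.257 to -0.147) without replicates 2 or 3 at 8 h or 1 at 24 h. Uncalled values reversed for Il6 from 8 to 24 h (-0.097 to 0.311) and from 4 to 24 h (-0.320 to 0.070), Lifr in vehicle from 4 to 8 h (-0.109 to 0.006), and Lif (-0.224 to 0.161) and Il11 (-0.323 to 0.043) in vehicle from 8 to 24 h. From 4 to 8 h, calls were gained for Lif without the filter (0.455) and with only the times compared (0.472). Il11 gained a call without FGF6 replicate 2 at 4 h (0.958) or 3 at 8 h (0.932). Il6st gained one without the filter (-0.125) and without FGF6 replicate 1 at 4 h (-0.146). From 4 to 24 h, Stat3 was called with library sizes alone (0.206) and without FGF6 replicate 3 at 24 h (0.180). In vehicle from 4 to 8 h, Il6 was called without the filter (-0.255) and with only the times compared (-0.267). This Il6 call was also gained without FGF6 replicate 1 at 24 h (-0.267). The cause was not tested.

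The replicate block called Il6 at 24 h (-0.332, adjusted p = 0.04 in edgeR) and changed no other call among the 72 values of the 9 genes. The labels do not say whether the numbers pair the libraries. Same-numbered libraries had correlations of deviations from -0.0275 to 0.0486, and 8 of 18 correlated best with their own number. With 3 libraries per group, these values cannot decide whether the libraries were paired. Depth limits Clcf1, at 1 count or less, and Il11 in vehicle, at 14 to 24 counts.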

Other observations

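The genes whose log2 CPM most resembled that of 4 members over all 18 libraries were ranked among 12298 genes. These are descriptions, since the libraries share 6 groups. For Lif they were Rsbn1, Met and Rnf11 (Pearson r of 0.994 each), Met being the receptor of hepatocyte growth factor. For Il11 they were Eif5 (0.987), a translation initiation factor, Cct8 (0.987), a subunit of a chaperonin, and Ctsl (0.985), a lysosomal protease. For Socs3 they were Hip1r (0.974), Lsm11 (0.971) and Runx1 (0.970), a transcription factor. For Il6 they were Ddx17 (0.935), an RNA helicase, Col27a1 (0.929), a fibrillar collagen, and Prkab2 (0.926), a subunit of AMP-activated kinase.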
